A study of Mus musculus with 46 samples.

Results

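The genes described here are 40 genes of mitosis: the cyclins and kinases that start it, the spindle checkpoint, the kinetochore, the machinery of spindle assembly, cytokinesis and chromatid separation, and the transcription factors that drive the set. They were chosen by name, and all 40 of 40 were listed both in the table of the cell lines (14360 genes) and in the table of the Max addback experiment (14056 genes, 13528 shared). RNA-seq was deposited for tumours and cultured thyroid tumour cells of mice in which tamoxifen switched on a Cre that made the conditional mutations in neuroendocrine cells. Of 46 samples, the 14 cell libraries were used, and 32 tumour libraries were not analysed here. The 4 RPM lines carried mutations of Rb, p53 and Max, and the 4 RP lines carried mutations of Rb and p53 only. In the addback experiment, 3 libraries came from cells transduced with a Max-expressing vector and 3 from cells transduced with an empty vector, all 6 named by the labels for the line of RPM line 2. All 14 libraries therefore share the mutations of Rb and p53, and all cells were grown in serum-containing medium. MAX is the partner with which MYC and the MNT and MXD proteins bind DNA at E-box sequences.

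The mitotic genes are transcribed late in the cell cycle. Their promoters are held down in resting cells by the DREAM complex, which pairs RB-family proteins with the MuvB core, and are switched on when MuvB instead works with B-MYB (Mybl2) and then FOXM1. Many carry a cell cycle homology region, bound by MuvB, and CCAAT boxes, bound by NF-Y. The proteins are made for a short window, in which CDK1 with cyclin B starts mitosis, Aurora and Polo-like kinases build the spindle, and the checkpoint holds back CDC20 and the anaphase-promoting complex until every kinetochore is attached.

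Promoter sequence was available from RefSeq (GRCm38.p6) for 34 of the 40 genes, in 37 windows of 300 bases that ran from 250 before to 50 after an annotated start. Ccna2, Cdc25c, Aurkb, Incenp, Tpx2 and Foxm1 had no window. Both strands were searched for TTTGAA (the core of the cell cycle homology region), CCAAT and CACGTG (the E-box), and a match counted whether or not it overlapped another motif. TTTGAA was in 24 of 37 windows of the mitotic genes, against 17.9% of all 32851 windows. CCAAT was in 28 of 37 windows, against 37.4% of all windows, and both motifs stood together in 22 of 37, against 6.95%. CACGTG was in 4 of 37 windows (Anln, Ttk, Espl1 and Sgo1), or 10.8%, against 7.15% of all windows. Over the 14091 windows of listed genes the shares were 11.7% for TTTGAA, 37.5% for CCAAT, 4.78% for both and 9.81% for CACGTG. The share of CACGTG in the mitotic genes was thus near that of listed genes. The matches describe the sequence and not binding.

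The stretches from 110 bases before to 30 bases after the start are shown for the 8 genes on which the results below turn, with the 3 motifs in capitals. Where a match lies on the other strand, the cell cycle homology core reads TTCAAA, and the CCAAT box reads ATTGG instead. Ccnb1 and Cdk1 are the 2 of 40 genes whose RPM and RP lines did not overlap, where 4.97% of all genes were higher without overlap. That count is near the share of genes at large, so it does not set the mitotic genes apart. Aurka and Ccnb2 are the only genes that rose with Max addback. Anln, Cdc20, Ttk and Cenpf are the 4 that fell by the largest log2 amounts. All lie on the minus strand but Ttk, which lies on the plus strand, and the intervals are chr13:100786457-100786596, chr10:69352883-69353022, chr2:172370541-172370680, chr9:70421525-70421664, chr9:22389177-22389316, chr4:118437314-118437453, chr9:83834579-83834718 and chr1:189688057-189688196, in that order.
Ccnb1: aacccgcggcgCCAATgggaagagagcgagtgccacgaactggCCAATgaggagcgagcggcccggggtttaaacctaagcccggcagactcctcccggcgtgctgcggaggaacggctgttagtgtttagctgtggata
Cdk1: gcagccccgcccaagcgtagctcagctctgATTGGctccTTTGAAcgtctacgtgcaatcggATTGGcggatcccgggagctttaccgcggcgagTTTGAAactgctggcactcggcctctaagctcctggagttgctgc
Aurka: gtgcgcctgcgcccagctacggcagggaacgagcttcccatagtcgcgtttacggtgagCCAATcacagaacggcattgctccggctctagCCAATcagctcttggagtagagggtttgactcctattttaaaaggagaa
Ccnb2: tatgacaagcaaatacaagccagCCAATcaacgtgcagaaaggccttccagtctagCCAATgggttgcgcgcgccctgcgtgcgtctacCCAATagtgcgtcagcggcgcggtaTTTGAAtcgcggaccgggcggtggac
Anln: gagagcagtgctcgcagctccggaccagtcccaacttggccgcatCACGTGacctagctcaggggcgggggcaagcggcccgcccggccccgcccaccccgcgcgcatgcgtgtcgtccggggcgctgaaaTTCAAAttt
Cdc20: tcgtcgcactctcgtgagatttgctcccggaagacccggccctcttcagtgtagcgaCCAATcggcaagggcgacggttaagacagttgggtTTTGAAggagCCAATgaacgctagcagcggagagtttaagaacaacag
Ttk: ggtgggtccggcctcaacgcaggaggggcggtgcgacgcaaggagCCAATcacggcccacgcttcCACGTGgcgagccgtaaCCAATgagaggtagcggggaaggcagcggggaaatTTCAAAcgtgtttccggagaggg
Cenpf: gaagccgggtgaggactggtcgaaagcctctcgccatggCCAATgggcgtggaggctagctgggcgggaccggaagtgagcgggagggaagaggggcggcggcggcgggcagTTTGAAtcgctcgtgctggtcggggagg

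In the stretches of Ccnb1, Cdk1 and Aurka the pair of CCAAT boxes was 32 bases apart, and the 3 boxes of Ccnb2 were 33 bases apart. The Cdk1 boxes lie on the other strand, and its 2 TTTGAA matches begin 71 and 15 bases before the start. Ccnb1 held no TTTGAA in its window, and the match of Aurka begins at base 33 after the start, beyond the printed stretch. The E-box began 65 bases before the start in Anln and 45 bases before it in Ttk. Of the 20 genes that fell with addback and had a window, 13 held TTTGAA, 13 held CCAAT and 3 held CACGTG. Of all 34 genes with a window, 21, 25 and 4 did, so the motifs were not particular to the genes that fell. The shares of 17.9%, 37.4% and 7.15% given above are of windows and not of genes.

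The libraries held 6738614 to 8498396 reads on listed genes, so that 3 reads, the level allowed by a count of 0, were worth 0.353 to 0.458 CPM. Values are read counts scaled to a common library size after the authors' TMM scaling (CPM). The lowest of the 40 genes in any library was Sgo1, at 18.6 CPM, so none approached that level. Max itself had 251, 249.6 and 220.3 CPM with addback, against 86.3, 83.1 and 96.03 CPM with the empty vector (log2 change 1.43 ± 0.086, limma adjusted p = 5.75e-07). In the lines it had 80.9, 103, 68.9 and 100.5 CPM in RPM lines 1 to 4, against 65.2, 44.7, 50.8 and 57.5 CPM in RP lines 1 to 4. A count over the whole gene does not check a deletion of part of it. The C cell and neuroendocrine markers (9 of 9 listed, Calca and Chga among them) summed to 3152 to 22179 CPM in RPM lines, against 3491 to 5739 CPM in RP lines. Endothelial markers were not listed in the lines, and follicular, fibroblast and immune markers were listed for 2 of 7, 3 of 7 and 1 of 6 genes. The animal named on RPM line 1 is also named on tumour libraries labelled Rb/p53 mutant, so the main counts of the lines are also given without it. Whether cultures were grown separately is not stated for the addback libraries, and their p-values measure only the spread between those libraries.

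**Figure D1:**
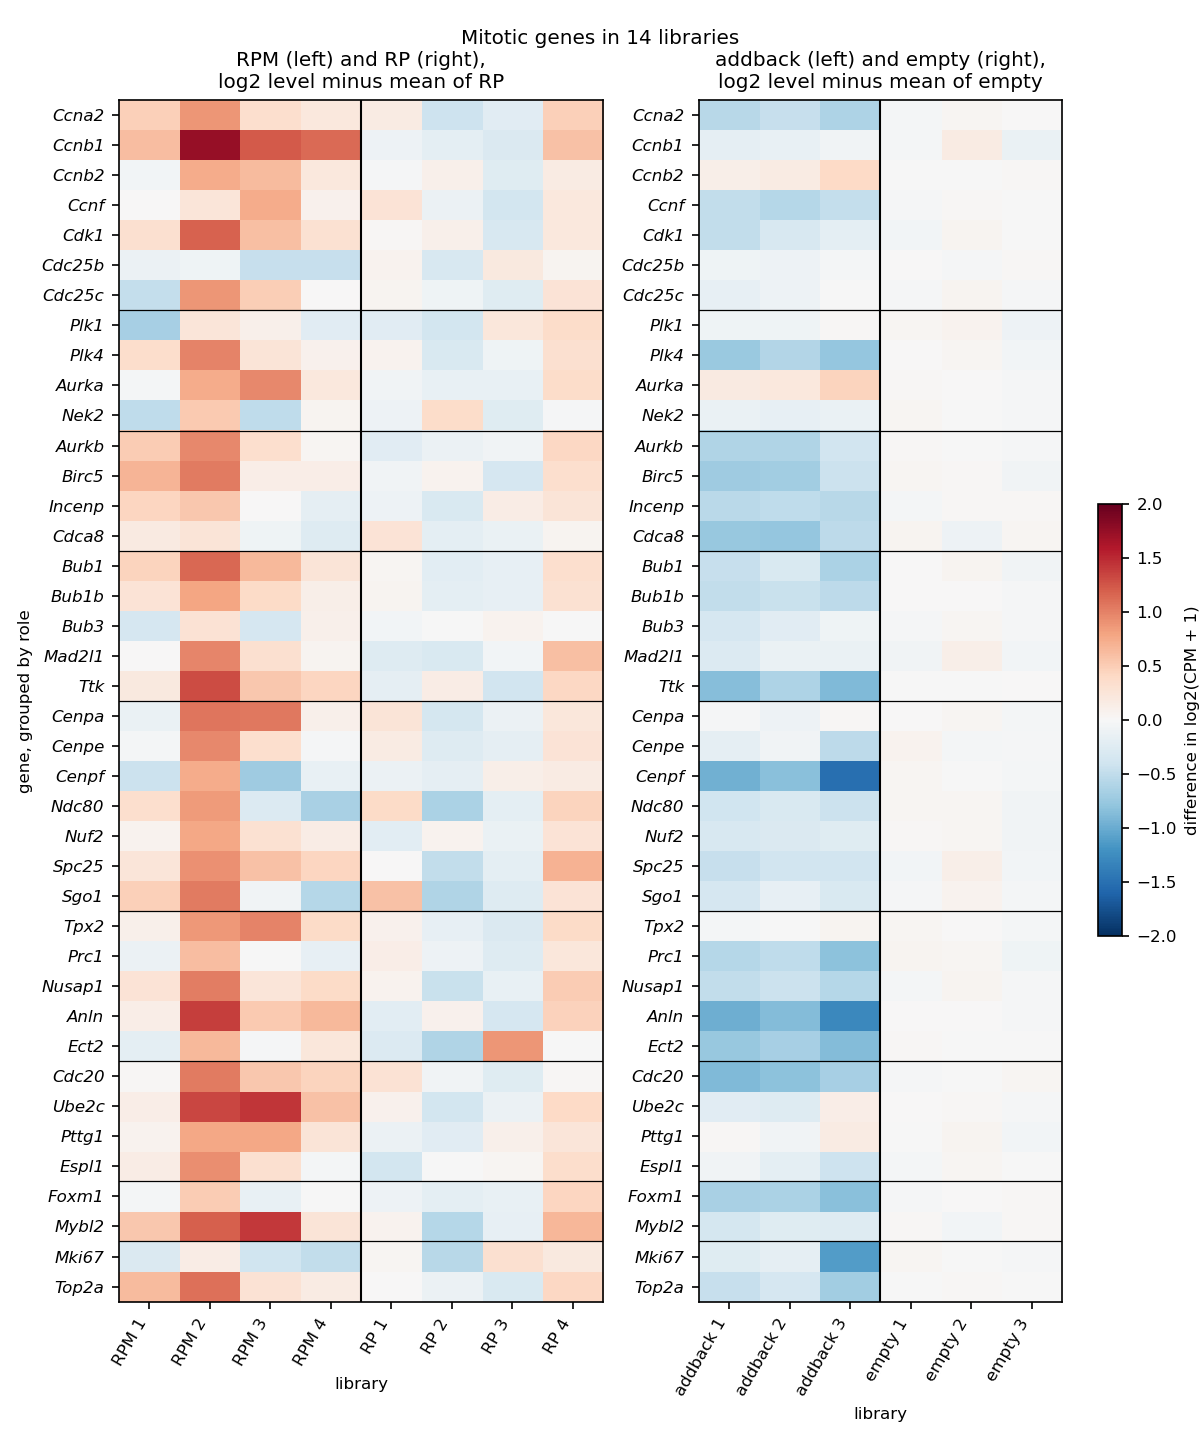
Level of each mitotic gene (rows, by role) in each library (columns), as the difference in log2(CPM + 1) from the mean of the RP lines (left panel) or of the empty vector libraries (right panel), red above and blue below. RPM line 2 is the reddest column on the left, and most rows are blue in all 3 addback columns on the right.

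In the 4 RPM lines, 34 of the 40 mitotic genes averaged above the 4 RP lines, with a median log2 change of 0.38 and a range of -0.28 (Cdc25b) to 1.18 (Ccnb1). Over all 14360 genes, 49.5% lay above 0 and 50.5% below, and the median was -0.0052. None of the 40 passed the threshold (limma, Benjamini-Hochberg adjusted p under 0.05 over all genes), where 0.209% of all genes were called higher and 0.125% lower. At an unadjusted p under 0.05, 10 of the 40 were higher and 0 lower, against 7.56% and 8.34% of all genes. DESeq2 called 1 of the 40 higher (Ccnb1) and 0 lower, against 2.44% of all genes called higher and 2.14% lower, and edgeR called 0. Without RPM line 1, 35 of the 40 lay above 0 with a median log2 change of 0.44, and limma called 1 higher (Ccnb1) and 0 lower, against 0.536% and 1.28% of all genes. The direction was shared by most of the genes, but by the main test no single gene differed beyond the spread between lines.

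That spread came largely as whole lines that were high or low for most of the genes. RPM line 2 was the highest of the 8 lines for 29 of the 40 genes, where it was highest for 16.9% of all genes with a mean of at least 1 CPM. RP line 2 was the lowest for 17 and RP line 3 for 12, and RP line 4 was the highest RP line for 30. The mean log2 level of the 40 genes was 7.12, 7.85, 7.35 and 7.12 in RPM lines 1 to 4, against 7.03, 6.81, 6.90 and 7.32 in RP lines 1 to 4, so RP line 4 lay above RPM lines 1 and 4. The 40 genes together took 0.834%, 1.30%, 0.902% and 0.799% of the reads in RPM lines 1 to 4, against 0.819%, 0.670%, 0.811% and 0.964% in RP lines 1 to 4. Without RPM line 2, 28 of 40 lay above 0 and the median log2 change was 0.26. In bulk RNA, more cells in mitosis and more RNA in each such cell cannot be told apart.

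With Max added back most of the set was lower: 24 of the 40 genes fell, 2 rose (Aurka and Ccnb2) and 14 did not pass the test. The background was high, since 25.5% of all genes were called lower and 27.7% higher, or 53.2% either way. The median log2 change of the 40 was -0.39, against -0.0019 for all genes, and 36 of the 40 lay below 0, where 50.1% of all genes lay below and 49.9% above. Addback and empty vector libraries did not overlap for 31 genes that were lower and 2 that were higher, against 30.2% and 31.7% of all genes. The 40 genes took 1.14%, 1.18% and 1.06% of the reads with addback, against 1.44%, 1.45% and 1.41% with the empty vector. The authors' deposited table, which has a call column of its own, marks 10 of the 40 lower: Anln, Birc5, Cdc20, Cdca8, Cenpf, Ect2, Foxm1, Plk4, Prc1 and Ttk. It marks none of the 40 higher, where that table marks 13.1% of all genes lower and 18.9% higher. Its call does not follow an FDR under 0.05 alone. Aurkb (log2 fold change -0.53, FDR 2.91e-05) and Aurka (0.28, FDR 0.0312) are not marked, among others. These counts are therefore not on the threshold behind the 24 and 2 above.

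The addback and empty vector cells also differed in other ways. The 4 Y-linked genes examined summed to 0 to 0.257 CPM with addback, against 410 to 423 CPM with the empty vector, so the 2 sets may not be the same line or subclone, and what Max did and what else set these cells apart cannot be told apart. C cell and neuroendocrine markers summed to 8161 to 9578 CPM with addback, against 4470.4 to 4729 CPM with the empty vector, and 8 of the 9 rose (median log2 change 1.88). The exception was Calca, with 2386 to 2876 CPM with addback, against 2693 to 2932 CPM with the empty vector. Of 7 fibroblast markers 3 were listed, and they summed to 12.2 to 15.1 CPM with addback, against 33.1 to 44.2 CPM with the empty vector. Of these, 2 were called lower (Dcn most, log2 change -2.12) and 1 higher (Thy1, 0.56). The part of these shifts in the mitotic results was not tested. Scaled to total reads without the TMM factor, 23 of the 40 genes fell and 2 rose. Of all genes, 20.8% were then called lower and 32.1% higher, and the median of all genes moved to 0.07.

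**Figure D2:**
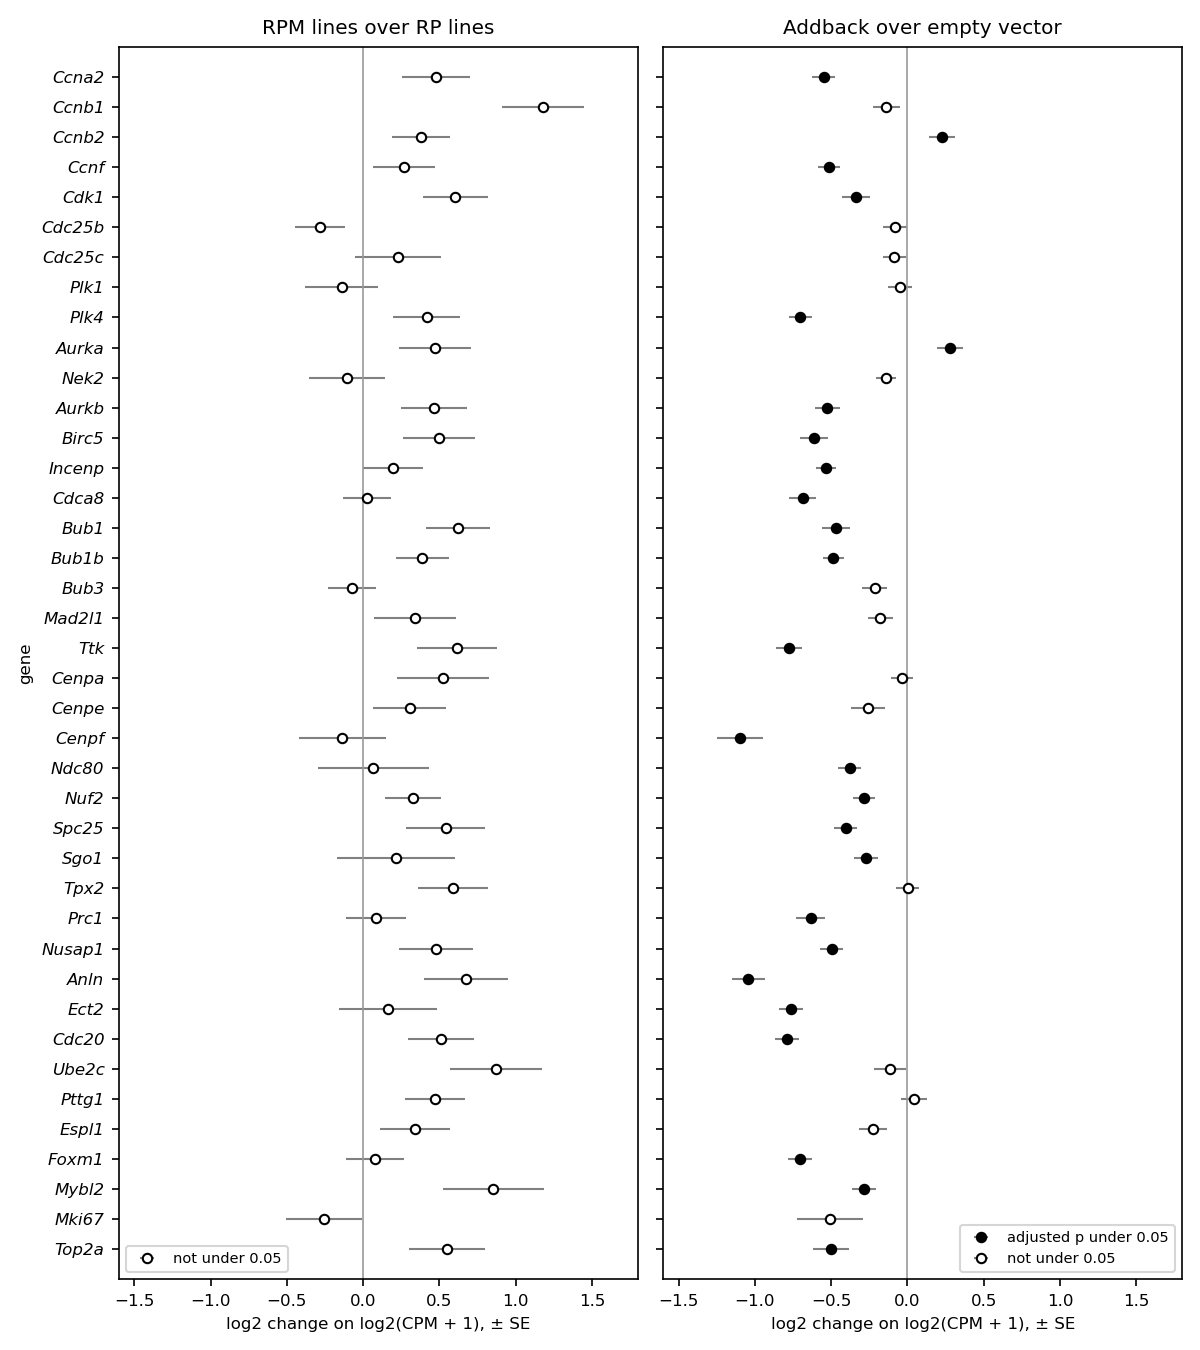
Log2 change of each mitotic gene on the log2(CPM + 1) scale for RPM lines over RP lines (left, n = 4 each) and for addback over empty vector (right, n = 3 each), with bars of ± 1 standard error and filled points for a limma adjusted p under 0.05. No point is filled on the left, where 34 of 40 lie right of 0, and 24 filled points lie left of 0 on the right.

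Among the cyclins, CDK1 and the CDC25 phosphatases, 3 of 7 fell with addback and 1 rose. Ccnb1, cyclin B1, the activating partner of CDK1, had 77.3, 171, 119 and 112 CPM in RPM lines 1 to 4, against 46.9, 43.6, 41.2 and 75.96 CPM in RP lines 1 to 4. The groups did not overlap, although RPM line 1 and RP line 4 nearly met. The log2 change was 1.18 ± 0.27 and the adjusted p 0.135 (limma), which was the smallest of the 40. Leaving out RPM line 1 brought it past the threshold (log2 change 1.37, adjusted p = 0.0435, limma), and the authors' deposited table gives a log2 fold change of 1.21 with an FDR of 0.00694. That table marks 2 of the 40 genes higher (Ccnb1 and Ube2c) and 0 lower, against 1.72% and 2.47% of all genes. With addback, Ccnb1 had 134, 137 and 144 CPM, against 149, 170.2 and 139 CPM with the empty vector, so the groups overlapped (log2 change -0.14, limma adjusted p = 0.211).

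Cdk1, the kinase that drives entry into mitosis, was the other gene without overlap in the lines, where 4.97% of all genes were higher and 4.39% lower without overlap. It had 214, 389.7, 262 and 212 CPM in RPM lines 1 to 4, against 173, 184, 136 and 198 CPM in RP lines 1 to 4 (log2 change 0.60 ± 0.21, limma adjusted p = 0.249). Cdk1 fell with addback, to 322, 362 and 398 CPM, against 438, 473 and 449 CPM with the empty vector (log2 change -0.33 ± 0.092, limma adjusted p = 0.0118). All addback libraries lay below all empty vector libraries. Cdk1 was one of 5 calls that did not hold under every alternative.

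Ccnb2, cyclin B2, rose with addback: it had 141, 145 and 171 CPM with addback, against 129, 129 and 131 CPM with the empty vector (log2 change 0.23 ± 0.086, limma adjusted p = 0.04999). The 3 addback libraries were above the empty vector libraries, the third by most, and 9 of 13 alternatives lost the call. In the lines Ccnb2 had 97.9, 171, 159 and 118 CPM in RPM lines 1 to 4, against 100.3, 109.9, 86.6 and 114 CPM in RP lines 1 to 4, with overlap. Ccna2, cyclin A2, which acts in S phase and early mitosis, fell to 265, 283 and 253 CPM with addback, against 380.2, 399.9 and 391 CPM with the empty vector (log2 change -0.55 ± 0.075). Ccnf, cyclin F, an F-box protein that marks proteins for degradation, fell by a similar log2 amount (-0.51 ± 0.069), to 101 ± 3.33 CPM with addback, against 145 ± 2.60 CPM with the empty vector (SD, n = 3 each). In the lines, Ccna2 averaged 249 ± 53.7 CPM in RPM lines and 181 ± 50.7 CPM in RP lines, and Ccnf 119 ± 29.3 CPM in RPM lines and 97.7 ± 19.4 CPM in RP lines (SD, n = 4 each), with overlap in both.

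The CDC25 phosphatases remove the inhibitory phosphates from CDK1. Cdc25b had 731, 725 and 755 CPM with addback, against 781, 769 and 788 CPM with the empty vector, and its change did not pass the test (log2 change -0.080). Of the 40 genes it had the lowest log2 change in the lines (-0.28 ± 0.16), with 585, 596, 463 and 461 CPM in RPM lines 1 to 4, against 670.4, 506, 724 and 663 CPM in RP lines 1 to 4. The groups overlapped through RP line 2. Cdc25c averaged 88.4 ± 4.91 CPM with addback and 93.96 ± 2.80 CPM with the empty vector (SD, n = 3 each), a log2 change of -0.088 that did not pass. Across the lines it averaged 60.8 ± 24.3 CPM in RPM lines and 49.2 ± 7.89 CPM in RP lines (SD, n = 4 each).

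**Figure D3:**
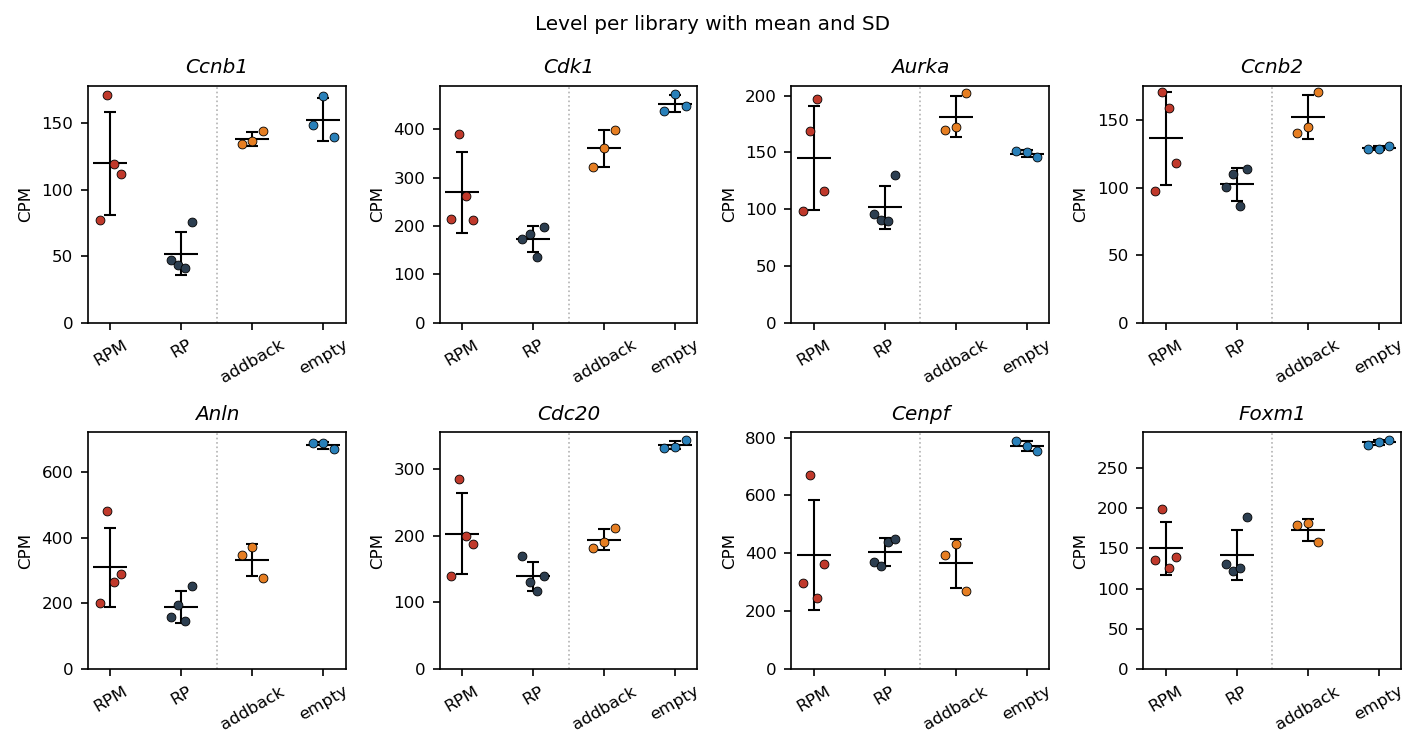
Level (CPM) of 8 mitotic genes in each library (points), with the group mean and SD (bars), for RPM lines, RP lines, addback and empty vector. Tables left and right of the dotted line were normalised separately. Ccnb1 separates the lines and not the addback groups, and Cenpf and Foxm1 separate the addback groups and not the lines.

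Of the 4 other mitotic kinases, Plk4 fell with addback, Aurka rose, and Plk1 and Nek2 did not pass. Aurka, Aurora A, the kinase of centrosome maturation and spindle assembly, had 169.6, 172 and 203 CPM with addback, against 151, 150.03 and 146 CPM with the empty vector (log2 change 0.28 ± 0.084, limma adjusted p = 0.0188). All addback libraries were higher, and the call was lost in 3 of 13 alternatives. In the lines Aurka had 98.01, 169, 197 and 116 CPM in RPM lines 1 to 4, against 95.3, 90.3, 89.98 and 130.2 CPM in RP lines 1 to 4, where RP line 4 stood above RPM lines 1 and 4. Aurka was therefore above the comparison group on average both in the RPM lines, which carry the Max mutation, and in the cells with Max added back.

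Plk4, which starts centriole duplication, had 77.3, 85.9 and 75.6 CPM with addback, against 130.3, 134 and 125 CPM with the empty vector (log2 change -0.70 ± 0.078, limma adjusted p = 4.55e-05). The addback libraries were all far below the empty vector libraries. In the lines Plk4 averaged 73.4 ± 22.5 CPM in RPM lines and 53.7 ± 9.88 CPM in RP lines (SD, n = 4 each). Plk1, the Polo-like kinase of mitotic entry and cytokinesis, had 130.4, 131 and 141 CPM with addback, against 143, 145 and 129 CPM with the empty vector, and the groups overlapped (log2 change -0.048 ± 0.078). Between the genotypes it had 86.3, 163, 147 and 118 CPM in RPM lines 1 to 4, against 117, 106, 161 and 178 CPM in RP lines 1 to 4. Both genotypes spanned the same levels. Nek2, a kinase of centrosome separation, averaged 160.2 ± 1.85 CPM with addback and 177 ± 4.01 CPM with the empty vector (SD, n = 3 each), a log2 change of -0.14 that did not pass. Among the lines it averaged 127 ± 46.04 CPM in RPM lines and 132 ± 25.1 CPM in RP lines (SD, n = 4 each).

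All 4 genes of the chromosomal passenger complex, which corrects wrong attachments between microtubules and kinetochores, fell with addback. Cdca8 (borealin) had 144, 142 and 169.6 CPM with addback, against 253, 229 and 252 CPM with the empty vector (log2 change -0.69 ± 0.090, limma adjusted p = 1.34e-04). Birc5 (survivin) had 107, 108 and 131 CPM with addback, against 182, 178 and 169 CPM with the empty vector (log2 change -0.61 ± 0.091). Aurkb, Aurora B, the kinase of the complex, had 124, 123 and 145 CPM with addback, against 192, 188 and 185 CPM with the empty vector (log2 change -0.53 ± 0.082). In these 3 genes the third addback library was the highest of its group and still below every empty vector library. Incenp, the scaffold, averaged 195 ± 2.82 CPM with addback and 284 ± 7.79 CPM with the empty vector (SD, n = 3 each, log2 change -0.53 ± 0.068). The 4 log2 changes lay between -0.69 and -0.53.

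In the lines the log2 changes of the passenger genes were all above 0, that of Cdca8 by least. Cdca8 had 156, 164, 129.8 and 115 CPM in RPM lines 1 to 4, against 166, 121, 125 and 143 CPM in RP lines 1 to 4 (log2 change 0.024 ± 0.16), and RP line 1 was the highest of the 8. Birc5 averaged 96.9 ± 30.5 CPM in RPM lines and 66.8 ± 12.8 CPM in RP lines, and Aurkb 113 ± 31.04 CPM in RPM lines and 80.5 ± 17.4 CPM in RP lines (SD, n = 4 each). Incenp averaged 187 ± 43.8 CPM in RPM lines and 162 ± 27.6 CPM in RP lines. None of the 4 passed the test.

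Of the 5 spindle checkpoint genes, Ttk, Bub1b and Bub1 fell with addback, and Bub3 and Mad2l1 did not pass. Ttk, the kinase MPS1, which recruits the checkpoint to unattached kinetochores, had 103, 121 and 101 CPM with addback, against 185, 186 and 188 CPM with the empty vector (log2 change -0.78 ± 0.084, limma adjusted p = 3.64e-05). All 3 addback libraries were below the empty vector libraries, which were within 4 CPM of each other. In the lines Ttk had 67.8, 147, 86.04 and 80.1 CPM in RPM lines 1 to 4, against 52.2, 65.5, 45.2 and 78.8 CPM in RP lines 1 to 4 (log2 change 0.62 ± 0.26), with overlap through RPM line 1 and RP line 4.

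Bub1b, which encodes the inhibitor BUBR1, had 167, 174 and 164 CPM with addback, against 238, 239 and 232 CPM with the empty vector (log2 change -0.49 ± 0.068). Bub1, its kinase relative, had 143, 159.7 and 128 CPM with addback, against 199, 207 and 189 CPM with the empty vector (log2 change -0.47 ± 0.091). Neither overlapped. Bub3, the partner that carries both to kinetochores, had 233, 253 and 278 CPM with addback, against 291, 303 and 291 CPM with the empty vector (log2 change -0.21, limma adjusted p = 0.0504). Mad2l1, the MAD2 protein that binds CDC20, averaged 178 ± 10.1 CPM with addback and 201 ± 14.2 CPM with the empty vector (SD, n = 3 each, log2 change -0.18). Both were called lower when the third addback library was left out, Bub3 also with DESeq2 size factors.

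In the lines, Bub1 had 106, 172, 122 and 92.4 CPM in RPM lines 1 to 4, against 79.9, 66.6, 68.9 and 98.4 CPM in RP lines 1 to 4 (log2 change 0.62 ± 0.21). Only RPM line 4 reached down into the RP range. Bub1b averaged 195 ± 40.8 CPM in RPM lines and 148 ± 24.3 CPM in RP lines, and Mad2l1 138 ± 47.1 CPM in RPM lines and 108 ± 35.04 CPM in RP lines (SD, n = 4 each). Bub3 was the steadiest of the 40 genes over the RP lines, with 199, 307, 199.7 and 271 CPM in RPM lines 1 to 4, against 243, 251, 264 and 249.5 CPM in RP lines 1 to 4, and its log2 change was -0.071.

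Of the 7 centromere and kinetochore genes, Cenpf, Spc25, Ndc80, Nuf2 and Sgo1 fell with addback, and Cenpe and Cenpa did not pass. Cenpf, a large protein of the outer kinetochore, had the largest fall of the 40 genes. It had 396, 431 and 271 CPM with addback, against 788, 769 and 753 CPM with the empty vector (log2 change -1.10 ± 0.15, limma adjusted p = 1.89e-04). The addback libraries reached 47.5% of the empty vector mean on average. In the lines it had 299, 670.3, 245 and 363 CPM in RPM lines 1 to 4, against 372, 355, 438 and 451 CPM in RP lines 1 to 4, so that RPM line 2 was above and RPM lines 1 and 3 below all RP lines.

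Ndc80, Nuf2 and Spc25 are subunits of the NDC80 complex, which holds microtubule ends. Spc25 had 130.05, 137 and 137 CPM with addback, against 172, 194 and 172 CPM with the empty vector (log2 change -0.41 ± 0.077). Ndc80 had 128, 137 and 125 CPM with addback, against 174, 173 and 161 CPM with the empty vector (log2 change -0.38 ± 0.074). The 3 subunits fell by neighbouring amounts, Nuf2 least, with 109 ± 2.68 CPM with addback and 133 ± 5.31 CPM with the empty vector (SD, n = 3 each, log2 change -0.28). In the lines their log2 changes were 0.54 (Spc25), 0.33 (Nuf2) and 0.066 (Ndc80). Ndc80 varied widely there, with 101, 144, 65.2 and 50.2 CPM in RPM lines 1 to 4, against 104, 50.6, 69.1 and 108 CPM in RP lines 1 to 4. Nuf2 averaged 89.5 ± 21.1 CPM in RPM lines and 70.3 ± 11.02 CPM in RP lines, and Spc25 94.7 ± 19.6 CPM in RPM lines and 66.99 ± 25.8 CPM in RP lines (SD, n = 4 each).

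Sgo1, shugoshin, which protects cohesin at the centromere, had 62.5, 70.6 and 63.9 CPM with addback, against 78.3, 83.1 and 77.1 CPM with the empty vector (log2 change -0.27 ± 0.081, limma adjusted p = 0.0166). Across the lines it was the lowest of the 40 genes by CPM in RP line 2, with 40.6, 60.7, 27.6 and 19.1 CPM in RPM lines 1 to 4, against 43.8, 18.6, 24.1 and 35.3 CPM in RP lines 1 to 4. Cenpa, the histone variant that marks the centromere, averaged 191 ± 8.53 CPM with addback and 196 ± 6.22 CPM with the empty vector (SD, n = 3 each), and the libraries overlapped. In RPM lines 1 to 4 Cenpa had 95.3, 221, 218 and 112 CPM, against 125, 81.4, 96.2 and 122 CPM in RP lines 1 to 4, so RPM lines 2 and 3 stood above the rest. Cenpe, the kinetochore motor, had 263, 282 and 208 CPM with addback, against 313, 289 and 291 CPM with the empty vector (log2 change -0.26, limma adjusted p = 0.0770). It was called lower without addback replicate 2 (-0.35, limma adjusted p = 0.0360) or 3 (-0.13, limma adjusted p = 0.0417). It averaged 227 ± 81.2 CPM in RPM lines and 178 ± 31.8 CPM in RP lines (SD, n = 4 each).

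Of the 5 genes of spindle assembly and cytokinesis, Anln, Ect2, Prc1 and Nusap1 fell with addback, and Tpx2 did not pass. Anln, anillin, which organises the contractile ring, had 347, 372 and 278 CPM with addback, against 688, 689 and 669 CPM with the empty vector (log2 change -1.04 ± 0.11, limma adjusted p = 2.70e-05). The addback mean was 48.8% of the empty vector mean. In the lines Anln had 202, 481, 265 and 289 CPM in RPM lines 1 to 4, against 159, 196, 146 and 253 CPM in RP lines 1 to 4 (log2 change 0.67 ± 0.28). RPM line 1 lay within the RP range there, and the other 3 RPM lines stood above it.

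Ect2, the RhoA activator that starts furrow ingression, had 223, 236 and 206 CPM with addback, against 383, 374 and 373 CPM with the empty vector (log2 change -0.76 ± 0.077, limma adjusted p = 2.29e-05). In the lines RP line 3 was the highest of the 8, with 174, 316, 196 and 233 CPM in RPM lines 1 to 4, against 166, 131, 371 and 198 CPM in RP lines 1 to 4. Prc1, which bundles the microtubules of the spindle midzone, had 292, 306 and 246 CPM with addback, against 451, 446 and 412 CPM with the empty vector (log2 change -0.63 ± 0.095). The lines gave 202, 339, 218 and 197 CPM in RPM lines 1 to 4, against 241, 205, 184 and 257 CPM in RP lines 1 to 4, and RPM line 2 stood alone. Nusap1, a spindle microtubule stabiliser, had 245 ± 12.8 CPM with addback and 346 ± 12.9 CPM with the empty vector (SD, n = 3 each, log2 change -0.50 ± 0.075). It had 184, 311, 179.8 and 199.8 CPM in RPM lines 1 to 4, against 161, 112, 137 and 218 CPM in RP lines 1 to 4.

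Tpx2, which activates Aurora A on the spindle, had 467, 482 and 500.03 CPM with addback, against 493, 485 and 469.6 CPM with the empty vector, and the groups overlapped (log2 change 0.0011 ± 0.075). Between the genotypes it had 251, 429, 464 and 306 CPM in RPM lines 1 to 4, against 247, 208, 190.4 and 304 CPM in RP lines 1 to 4 (log2 change 0.59 ± 0.23, limma adjusted p = 0.279). RPM lines 2, 3 and 4 stood above all RP lines, line 4 by little. Tpx2 and Aurka, whose proteins work as a pair, thus had higher averages in RPM lines and no fall with addback.

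Of the 4 genes of anaphase and chromatid separation, Cdc20 fell with addback, and Ube2c, Espl1 and Pttg1 did not pass. Cdc20, the activator of the anaphase-promoting complex and the target of the checkpoint, had 181, 190.4 and 212 CPM with addback, against 332, 334 and 344 CPM with the empty vector (log2 change -0.79 ± 0.080). Its adjusted p of 2.28e-05 (limma) was the smallest of the 40. In the lines Cdc20 had 139.9, 286, 200.4 and 188 CPM in RPM lines 1 to 4, against 169, 131, 117 and 139.9 CPM in RP lines 1 to 4 (log2 change 0.51 ± 0.22), with RPM line 1 inside the RP range.

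Ube2c, the ubiquitin-conjugating enzyme of the complex, had the second largest log2 change in the lines (0.87 ± 0.30, limma adjusted p = 0.243). It had 182, 419, 444 and 248 CPM in RPM lines 1 to 4, against 175, 127, 152 and 218 CPM in RP lines 1 to 4, and the authors' deposited table marks it higher, with a log2 fold change of 0.94 and an FDR of 0.0293. RPM line 1 overlapped the RP lines. With addback Ube2c had 335, 328 and 427 CPM, against 391, 396 and 386 CPM with the empty vector, so the third addback library lay above and the first and second below (log2 change -0.12 ± 0.10). Without the third addback library the log2 change was -0.24 and passed the test. Pttg1 (securin), which holds separase inactive, averaged 101 ± 8.54 CPM with addback and 98.2 ± 4.06 CPM with the empty vector (SD, n = 3 each). It had 66.9, 110.2, 110.3 and 76.8 CPM in RPM lines 1 to 4, against 58.8, 54.4, 68.6 and 75.8 CPM in RP lines 1 to 4. Espl1 (separase), the protease that cuts cohesin, averaged 165 ± 19.2 CPM with addback and 193 ± 4.65 CPM with the empty vector (SD, n = 3 each, log2 change -0.23). It was called lower without addback replicate 1 (-0.30, limma adjusted p = 0.0212) or 3 (-0.14, limma adjusted p = 0.0316). In the lines Espl1 averaged 145 ± 46.03 CPM in RPM lines and 112 ± 22.9 CPM in RP lines (SD, n = 4 each).

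Both transcription factors of the programme fell with addback. Foxm1 had 179.6, 182 and 158 CPM with addback, against 278, 283 and 285 CPM with the empty vector (log2 change -0.70 ± 0.079, limma adjusted p = 4.60e-05). Among the lines it had 136, 199, 126 and 139.7 CPM in RPM lines 1 to 4, against 131, 122, 126 and 189 CPM in RP lines 1 to 4, and the ranges nearly coincided (log2 change 0.080 ± 0.19). Mybl2, which encodes B-MYB, had 57.7, 62.4 and 62.2 CPM with addback, against 75.6, 71.6 and 75.6 CPM with the empty vector (log2 change -0.29 ± 0.076, limma adjusted p = 0.0102). In the lines its log2 change was 0.85 ± 0.33, with 41.98, 66.3, 77.5 and 34.3 CPM in RPM lines 1 to 4, against 29.8, 18.9, 25.4 and 45.6 CPM in RP lines 1 to 4. RPM line 3 was its highest library and RP line 4 lay above RPM lines 1 and 4.

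Top2a, topoisomerase II alpha, which untangles sister chromatids, fell to 1580.1, 1708 and 1336 CPM with addback, against 2146, 2203 and 2154 CPM with the empty vector (log2 change -0.50 ± 0.12, limma adjusted p = 0.00535). It averaged 1356 ± 418 CPM in RPM lines and 912 ± 205 CPM in RP lines (SD, n = 4 each, log2 change 0.55 ± 0.25). Mki67, the proliferation marker Ki-67, which coats mitotic chromosomes, had 1958, 2030.03 and 1069 CPM with addback, against 2360.02, 2288 and 2277 CPM with the empty vector. The third addback library was far below the other 2, and the change did not pass the test (log2 change -0.51 ± 0.22, limma adjusted p = 0.0715). Without that library it was called lower, but with a log2 change of -0.21 (limma adjusted p = 0.00241). It was also called without the first or the second (-0.65 and -0.67), with DESeq2 and with the replicate block. In the lines Mki67 had 1451, 1966, 1354 and 1266 CPM in RPM lines 1 to 4, against 1833, 1205, 2219.5 and 2026 CPM in RP lines 1 to 4, a log2 change of -0.26 in the opposite direction to Top2a.

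The third addback library differed from the other 2 by gene length. Length here is CPM over RPKM, the length in kb behind the RPKM values, and not the span of the gene on the genome. Its level minus the mean of addback 1 and 2 had a log2 median of 0.25 over the shortest of 5 equal classes of the 13343 genes with a mean of at least 1 CPM and -0.30 over the longest, and 0.19 and -0.30 over the 4 and 9 mitotic genes in those classes. Mki67 (10.1 kb) was at -0.90, Cenpf (15.4 kb) at -0.61 and Top2a (9.01 kb) at -0.30, whereas Ube2c (2.60 kb) was at 0.37, Ccnb2 (1.53 kb) at 0.26 and Aurka (2.53 kb) at 0.24. Short genes were therefore high and long genes low in that library, in the mitotic set as in those 13343 genes. Without it 32 of the 40 genes were called lower and 2 higher, against 31.7% and 32.5% of all genes tested. The 8 added were Bub3, Ccnb1, Cenpe, Espl1, Mad2l1, Mki67, Nek2 and Ube2c. Without that library the median log2 change of the 9 long mitotic genes was -0.40, against -0.51 with it. Cenpf stayed at -0.90 without it, and Aurka and Ccnb2 at 0.20 and 0.14.

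**Figure D4:**
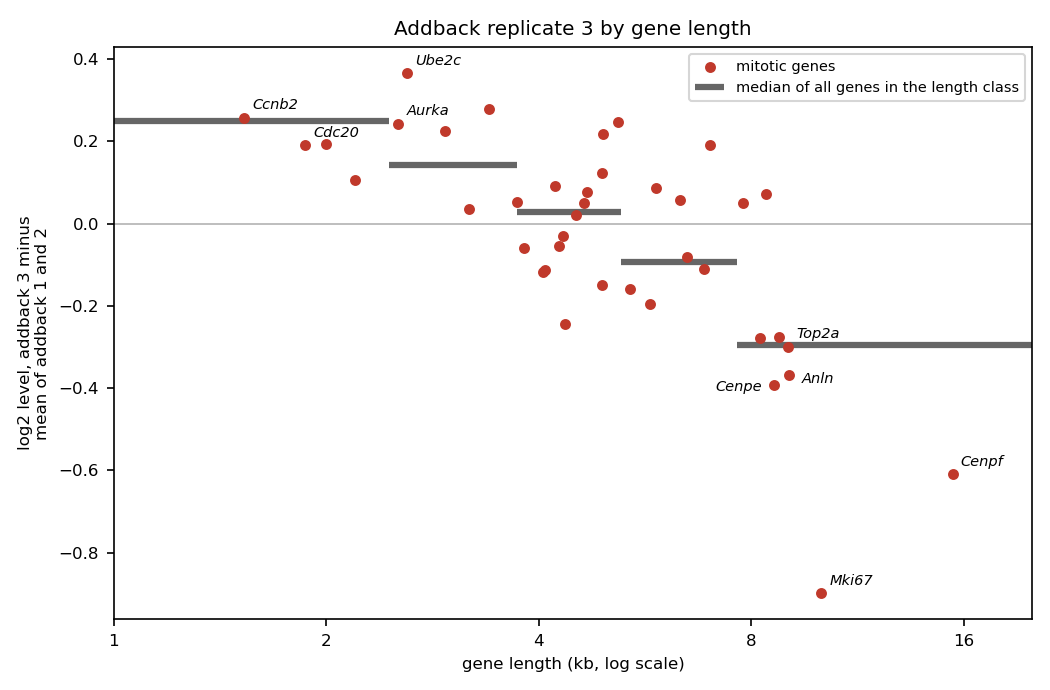
Log2 level in addback replicate 3 minus the mean of replicates 1 and 2 (vertical axis) for each mitotic gene (points) by gene length in kb (horizontal log axis), with grey bars for the median of the 13343 genes with a mean of at least 1 CPM in each of 5 length classes. Length is CPM over RPKM and not the span on the genome. Points and bars descend with length, from 0.25 in the shortest class to -0.30 in the longest, with Mki67 lowest at -0.90.

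Of the 24 genes that fell with addback, 23 averaged higher in RPM than in RP lines (all but Cenpf), against 60.3% of the 3393 shared genes that fell. The 23 of 24 stands beside 34 of all 40 above 0 in the lines. Over the whole set, 30 of 40 lay above 0 in the lines and below 0 with addback, against 28.3% of all shared genes. That count is the smallest that 34 of 40 above 0 in the lines and 36 of 40 below 0 with addback allow. It therefore shows no link gene by gene. The 2 comparisons share no library, although the labels name the line of RPM line 2 for the addback experiment. The size of the 2 effects was compared in 1 limma fit over all 14 libraries, as the log2 change of RPM over RP lines less that of empty vector over addback libraries. Of the 40 genes, 2 were called higher and 3 lower, against 9.23% of all shared genes called higher and 5.91% lower. Ccnb1 (1.04 ± 0.27, adjusted p = 0.0194, limma) and Aurka (0.75 ± 0.24, adjusted p = 0.0493, limma) were relatively higher in the lines. Cenpf (-1.24 ± 0.36, adjusted p = 0.0335, limma), Cdca8 (-0.66 ± 0.19, adjusted p = 0.0322, limma) and Foxm1 (-0.62 ± 0.20, adjusted p = 0.0499, limma) changed more with addback than between the lines. None of the 5 passed under every alternative.

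The tables were normalised separately, so levels across them are a description only. In all 3 empty vector libraries 39 of the 40 genes were above the highest RP line, and 28 of the 40 were above it in all 3 addback libraries too. The share of all genes was not counted, so whether these counts are unusual is not known.

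Levels of different genes were compared per length, as RPKM. With the empty vector the mean level was highest for Top2a (240.5), Mki67 (229), Cdc25b (209), Cdc20 (180.2) and Ube2c (150.4 RPKM), and lowest for Mybl2 (16.03), Ccnf (18.6), Plk4 (18.95) and Cdc25c (19.1 RPKM). In RP lines the ends were alike, with Mki67 (181), Cdc25b (172) and Top2a (101 RPKM) at the top and Mybl2 (6.46), Plk4 (7.84) and Sgo1 (7.999 RPKM) at the bottom. Within the NDC80 complex the mean RPKM with the empty vector was 56.2 for Spc25, 26.1 for Ndc80 and 21.05 for Nuf2.

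Other genes of the same machinery were counted in the same way, against the background of 25.5% of all genes called lower and 27.7% called higher with addback. Of 98 further mitotic genes, 43 fell and 6 rose, with a median log2 change of -0.20. Of 14 further checkpoint and cohesion protection genes 7 fell and 0 rose, led by Sgo2a, a shugoshin, at -0.95. Of 30 further kinetochore genes 14 fell and 2 rose, with Cenpw at -0.67 and Cenpn at 0.55. Condensin, which compacts chromosomes, had 5 of 8 subunits that fell and 1 that rose, with Smc2 at -0.58 and its partner Smc4 at 0.30. Of 17 subunits and regulators of the anaphase-promoting complex 6 fell and 2 rose, with Cdc16 at -0.48 and Anapc2 at 0.60. Of 11 brakes on entry and exit 4 fell and 1 rose, with Wee1, the kinase that inhibits CDK1, at -0.66 and Ensa, an inhibitor of the phosphatase PP2A, at 0.50. Of the DREAM and MuvB subunits 5 of 12 fell, E2f5 most at -0.65, and of cohesin, which holds sister chromatids, 2 of 6 fell, Smc3 most at -0.44.

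Genes of the G1/S transition and S phase served as the neighbouring programme. Of 24 listed, 7 fell and 4 rose with addback, where 25.5% of all genes fell and 27.7% rose, with a median log2 change of -0.14, led by Rrm2, a subunit of ribonucleotide reductase, at -1.21 and by Mcm4, a subunit of the replicative helicase, at 0.36. In the lines no gene of any of these lists was called. There, 72 of the 98 further mitotic genes and 13 of 23 listed G1/S genes lay above 0, with median log2 changes of 0.19 and 0.09.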

How the data were processed

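RNA-seq of 14 libraries of cultured mouse thyroid tumour cells was used (4 RPM lines, 4 RP lines, 3 addback and 3 empty vector libraries). Groups and replicate numbers came from titles and genotypes. The submitters' processing notes name bcl2fastq 1.8.4, TopHat2 2.1.0, HTSeq 0.6.1, edgeR and build mm10, without their roles. Strand use in counting is not stated, so a gene and an overlapping antisense gene cannot be separated. Per the file headers, the deposited expression signal is CPM after TMM scaling by the authors, once per table, and RPKM is deposited beside it. The deposited tables also hold the authors' log2 fold change, p-value and FDR, and a score of -1, 0 or 1 for their calls. Every CPM value was a whole multiple of 1 read (100% within 0.01 reads), so read counts were recovered from the deposited signal for the count tests.

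The main test was limma 3.58.1 (R 4.3.3) with a trend on log2(CPM + 1) over all listed genes, without a filter, for each comparison on its own libraries, two-sided, with Benjamini-Hochberg adjustment at 0.05. Fold changes on this scale understate changes of low genes. The difference between comparisons was fitted over 13528 shared genes with 1 variance per table. Alternatives were a pseudocount of 0.25, a mean of at least 1 CPM, total reads or DESeq2 size factors for scaling, edgeR 4.0.16 and DESeq2 1.42.0 on recovered reads, a replicate block and each library left out. The limma fit of each comparison was also run on simulated data, with fewer changed genes than were called with addback. No conclusion is drawn from that run. The 40 genes, the lists and the tests were chosen with earlier results of these data known. All 40 genes were named with values, and of other list genes the called gene with the largest change each way. Libraries of a group differed by more than sampling noise, and none were merged. Between different lines the chi-square per degree of freedom was 33.2 to 77.9 (RPM) and 20.7 to 57.4 (RP). Between libraries of the addback experiment it was 1.835 to 15.5 (addback) and 1.76 to 1.90 (empty vector). Limits from 3 reads cover counting error only. RefSeq promoters were matched by symbol, and positions count from the annotated start. A marker gene of the list was left out and is not reported here.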

Additional observations from a re-analysis of the deposited data

Results flagged for a closer look

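In groups of 4 lines, 1 line stood apart from the other 3 in 5 of 80 tests over the 40 mitotic genes (Dixon's test), and chance flags about 1 in 20 groups. RPM line 2 was highest and apart for Prc1 (339 CPM) and Nusap1 (311 CPM). RP line 4 was highest and apart for Ccnb1 (76.0 CPM), Aurka (130.2 CPM) and Foxm1 (189 CPM). RPM line 2 was also the highest of all 8 lines for 29 of the 40 genes, and RP line 4 the highest RP line for 30.

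The change of RPM over RP lines less that of empty vector over addback libraries passed the limma test for 5 of 40 mitotic genes. Of all 13528 shared genes, 15.1% passed either way, so the mitotic set did not pass more often than genes at large. The difference was 1.04 for Ccnb1 and 0.75 for Aurka, and -1.24 for Cenpf, -0.66 for Cdca8 and -0.62 for Foxm1, on the log2 scale. Of 18 alternatives, 2 lost the call of Ccnb1, 9 that of Cenpf, 10 that of Cdca8, 12 that of Foxm1 and 13 that of Aurka. Without the third addback library, whose levels moved with gene length, the value for Cenpf was -1.03.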

How the results depend on the processing

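Of the 26 genes called with addback, 21 kept their direction and their call under all 13 alternatives, and Aurka, Ccnb2, Cdk1, Mybl2 and Sgo1 lost the call under at least 1. The count that fell was 22 to 32 when a library was left out, highest without addback replicate 3, which also gave the most calls over all genes (2846 to 4460 lower and 3320 to 4575 higher when a library was left out). The count that rose was 1 with a pseudocount of 0.25, a mean of at least 1 CPM, edgeR, DESeq2 or the replicate block, 1 without addback replicate 2, 0 without any 1 of the empty vector libraries, and so 0 to 2 in all. The median log2 change was -0.31 on total reads and -0.42 to -0.36 with a library left out. On total reads Cdc25b was at 0.0003, Cenpa at 0.047 and Plk1 at 0.032, none of them called. With a library left out, the uncalled changes of Cenpa (-0.062 to 0.0012), Pttg1 (-0.022 to 0.095) and Tpx2 (-0.024 to 0.025) crossed 0.

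In the lines, DESeq2 called 350 genes higher and 308 lower, edgeR 1 and 2, and the replicate block 0 and 0. Leaving out a line gave 0 to 77 higher and 0 to 184 lower, the most without RPM line 1, which was also the only line whose loss brought a call among the 40 (0 to 1 higher, Ccnb1). DESeq2 also called 1 of the 40. Uncalled log2 changes crossed 0 when a line was left out for Bub3 (-0.19 to 0.019), Cdca8 (-0.053 to 0.12), Cenpf (-0.43 to 0.054), Ect2 (-0.040 to 0.46), Foxm1 (-0.063 to 0.22), Ndc80 (-0.20 to 0.31), Nek2 (-0.32 to 0.027), Plk1 (-0.27 to 0.036), Prc1 (-0.098 to 0.16) and Sgo1 (-0.057 to 0.48). The median of the 40 was 0.26 to 0.50.

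For the difference between comparisons, equal weights gave 763 genes higher and 432 lower with 0 and 0 of the 40, and voom with quality weights 2068 and 1621 with 7 of the 40 lower. Leaving out a library gave 880 to 1416 higher and 530 to 1025 lower, with 0 to 6 of the 40 higher (6 without RPM line 1) and 0 to 4 lower.

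Same-numbered libraries deviated together weakly, except replicate 1 of the lines (correlations of 0.40, 0.047, 0.012 and 0.13 in the lines, and 0.032, 0.012 and 0.079 with addback). Of the libraries, 3 of 8 and 3 of 6 correlated best with their own number. These values do not show that the numbers pair the samples, and they are too few to exclude it. With the replicate block 25 of the 40 genes fell and 1 rose with addback, against 25.5% and 27.4% of all genes. Other limits are the 4 lines per genotype and the single line named for the addback experiment. The causes of these shifts were not tested.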
